A study of Mus musculus with 4 samples.

Results

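The shortest chromatin loops called in mouse granulosa cells, those whose 2 anchors lay 60 kb or less apart, numbered 4583 among 30437 called loops. They were chosen by span alone: every loop of the 4 deposited loop lists was kept when the midpoints of its anchors were 60 kb apart or closer. The lists come from Micro-C, a chromosome conformation assay that digests chromatin with micrococcal nuclease, on granulosa cells, the somatic cells that surround the oocyte in the ovarian follicle. The hCG group was from 21-day-old mice injected with 5 IU eCG (equine chorionic gonadotropin, named PMSG in the labels) and then 5 IU of human chorionic gonadotropin (hCG), with collection 6 h after hCG. The PMSG group was from 21-day-old mice that had received the same 5 IU of eCG and were collected at 0 h, with no hCG. The interval after eCG is 46 h in one label and 44 h in another. Each group has 2 libraries, named here hCG 1, hCG 2, PMSG 1 and PMSG 2. The cells were released by puncturing whole ovaries, no strain is named, and 2 to 3 technical replicates of each sample were merged before loops were called. Separate mice are not stated for the libraries, and p-values measure only the spread between these libraries, which may be technical.

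A chromatin loop in such a map is a pair of sites that touch more often than their surroundings. Loops form where the cohesin ring draws in chromatin until it meets the protein CTCF bound at sites that face each other, and contacts also form between promoters and the enhancers or promoters that act with them. Many promoter-enhancer contacts and contacts within a gene lie in the range of the short loops described here. In granulosa cells hCG acts on the receptor of luteinizing hormone (LH), raises cyclic AMP, and starts the programme of ovulation: ligands of the epidermal growth factor (EGF) receptor, the hyaluronan matrix of the cumulus, prostaglandin E2, and the shift to progesterone synthesis.

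Some promoters that lay inside a short anchor are shown because they are the sequence at the loops described below and carry short motifs linked to these pathways in general. They are RefSeq windows on GRCm38.p6, the assembly of mm10, running from 250 bases before to 50 after the annotated start, written 5′ to 3′ on the gene's strand. The motifs searched on both strands were the cyclic AMP response element CRE (TGACGTCA), the AP-1 element (TGANTCA), the GC box (GGGCGG), the TATA box (TATAAA), an NR5A element (TCAAGGTCA) and a CTCF core (CC, any 3 bases, AG, any 2 bases, GGC), with matches in capitals. CRE and AP-1 can match on both strands at 1 place, and GC boxes can lie side by side. These 5 promoters were chosen after their values were seen. That of Mcm5 (chr8:75109259-75109558, plus strand), a subunit of the replicative helicase, lay in a short anchor of all 4 lists and holds 1 CRE. That of Igfbp7 (chr5:77407996-77408295, minus strand), a secreted binding protein of insulin-like growth factors, also lay in a short anchor of all 4 lists and holds 4 GC boxes. Those of Tnfaip6 (chr2:52037863-52038162, plus strand), which encodes a protein that ties hyaluronan into the cumulus matrix, and Errfi1 (1 of its 2 windows, chr4:150854820-150855119, plus strand), a feedback inhibitor of the EGF receptor, lay in short anchors of both hCG lists. The Tnfaip6 window holds an AP-1 element and a GC box, and this Errfi1 window a CRE, a TATA box and GC boxes. The other Errfi1 window (chr4:150853546-150853845, plus strand), at the gene start used for the loop below, also lay in short anchors of both hCG lists. It holds none of the motifs searched. That of Ass1 (chr2:31470020-31470319, plus strand), an enzyme of arginine synthesis, lay in a short anchor of both PMSG lists and holds a CTCF core and a GC box.
Mcm5: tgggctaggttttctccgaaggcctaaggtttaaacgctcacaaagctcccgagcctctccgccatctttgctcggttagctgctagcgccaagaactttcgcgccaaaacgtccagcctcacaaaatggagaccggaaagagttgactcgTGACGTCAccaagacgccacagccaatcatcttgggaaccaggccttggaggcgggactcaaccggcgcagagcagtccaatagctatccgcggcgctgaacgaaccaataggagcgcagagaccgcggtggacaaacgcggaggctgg
Igfbp7: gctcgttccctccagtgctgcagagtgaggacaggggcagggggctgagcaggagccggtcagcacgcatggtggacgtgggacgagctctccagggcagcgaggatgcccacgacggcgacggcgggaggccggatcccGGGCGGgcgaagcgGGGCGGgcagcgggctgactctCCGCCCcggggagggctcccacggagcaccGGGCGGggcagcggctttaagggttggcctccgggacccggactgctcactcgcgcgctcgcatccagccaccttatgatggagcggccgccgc
Tnfaip6: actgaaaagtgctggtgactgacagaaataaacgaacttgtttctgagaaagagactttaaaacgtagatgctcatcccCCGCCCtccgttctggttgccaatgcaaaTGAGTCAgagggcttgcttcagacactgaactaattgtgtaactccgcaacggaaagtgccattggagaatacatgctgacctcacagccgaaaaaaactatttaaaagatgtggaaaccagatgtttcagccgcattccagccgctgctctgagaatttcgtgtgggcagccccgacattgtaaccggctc
Errfi1: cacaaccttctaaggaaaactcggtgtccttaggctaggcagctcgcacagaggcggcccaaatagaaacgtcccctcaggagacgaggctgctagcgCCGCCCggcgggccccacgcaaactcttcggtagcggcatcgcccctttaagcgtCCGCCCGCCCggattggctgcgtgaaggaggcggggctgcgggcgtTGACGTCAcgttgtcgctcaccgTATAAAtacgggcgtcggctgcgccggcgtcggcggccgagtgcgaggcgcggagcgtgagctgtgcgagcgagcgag
Ass1: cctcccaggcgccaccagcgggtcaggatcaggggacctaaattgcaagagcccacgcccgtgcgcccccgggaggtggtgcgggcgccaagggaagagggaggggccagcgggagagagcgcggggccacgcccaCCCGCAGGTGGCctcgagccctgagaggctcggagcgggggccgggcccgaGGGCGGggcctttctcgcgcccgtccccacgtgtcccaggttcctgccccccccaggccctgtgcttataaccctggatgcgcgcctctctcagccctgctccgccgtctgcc

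Among the promoters that lay inside short anchors of all 4 lists in 5 kb bins, a CTCF core was found at 15 places, in 17 windows since paired genes can share a place. On the left anchor 6 of these cores pointed into the loop and 1 out of it, and on the right anchor 5 pointed into it and 3 out of it. No loop of this set had a core at both anchors. The orientation varied between single lists: at short 5 kb anchors, counted by window, hCG 1 had 7 in and 3 out on the left and 9 in and 7 out on the right, and hCG 2 had 6 in and 6 out on the left and 10 in and 7 out on the right. PMSG 1 had 14 in and 4 out on the left and 16 in and 8 out on the right, and PMSG 2 had 5 in and 2 out on the left and 3 in and 6 out on the right. Inward-pointing examples from the loops of all 4 lists, chosen after the values were seen, follow with the core in capitals, read on the strand of the core and with 6 bases on each side. The core at Meltf (chr16:31878726-31878737, plus strand) and the core at Gnptab (chr10:88379121-88379132, plus strand) lay in left anchors. Those at Twistnb (chr12:33429490-33429501, minus strand), Flt3l (chr7:45136496-45136507, minus strand) and Ddit4 (chr10:59951884-59951895, minus strand) lay in right anchors.
Meltf: gaccggCCGGCAGGGGGCagagga
Gnptab: ctccgcCCTCTAGGTGGCgctggc
Twistnb: gtttgaCCAGCAGAGGGCtgctgc
Flt3l: ttgttaCCACTAGGTGGCgtgtcc
Ddit4: ctgcgaCCTGGAGGGGGCgtggcc
A match is a description of the letters in these windows and not a measured binding site.

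Short loops made up 17.7% of the hCG 1 list (1356 of 7664) and 16.6% of the hCG 2 list (1315 of 7935), against 15.5% of the PMSG 1 list (1290 of 8305) and 9.52% of the PMSG 2 list (622 of 6533). The Wilson 95% intervals (counting error alone) ran from 16.9 to 18.6% and 15.8 to 17.4% in the hCG lists, and from 14.8 to 16.3% and 8.83 to 10.3% in the PMSG lists. Both hCG libraries stood above both PMSG libraries. The means were 17.1 ± 0.79% in hCG and 12.5 ± 4.25% in PMSG (SD, n = 2 each), a difference of 4.61 percentage points. The exact permutation test over libraries (two-sided) gave p = 0.333, the smallest value that 2 libraries against 2 allow. PMSG 2 decided the size of the difference: without it the difference was 1.6 points in share, and 45.5 in place of 379.5 in the number of short loops. At the 66 short pixels called at the same place and bin size in all 4 lists, the expected contacts, as a ratio to those of PMSG 1, were 0.54 in hCG 1, 0.69 in hCG 2 and 0.54 in PMSG 2. The part of depth in the number of short loops was not tested.

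All short loops were called in bins of 5 or 10 kb. In 5 kb bins they numbered 565 and 626 in hCG 1 and hCG 2, against 704 and 273 in PMSG 1 and PMSG 2, and in 10 kb bins 791 and 689 in the hCG lists against 586 and 349 in the PMSG lists. PMSG 1 thus had the most short loops in 5 kb bins, while the hCG lists had the most in 10 kb bins. In 5 kb bins alone the number of short loops differed by 107 between the group means (exact permutation p = 1). No loop in 25 kb bins was shorter than 100 kb, so that bin size holds no member. In every list the shortest loop spanned 35 kb where bins were 5 kb and 50 kb where they were 10 kb. Single pixels of short loops held 11 to 111 contacts, with a median of 32 and 36 in the hCG lists and 40 and 31 in the PMSG lists.

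**Figure D1:**
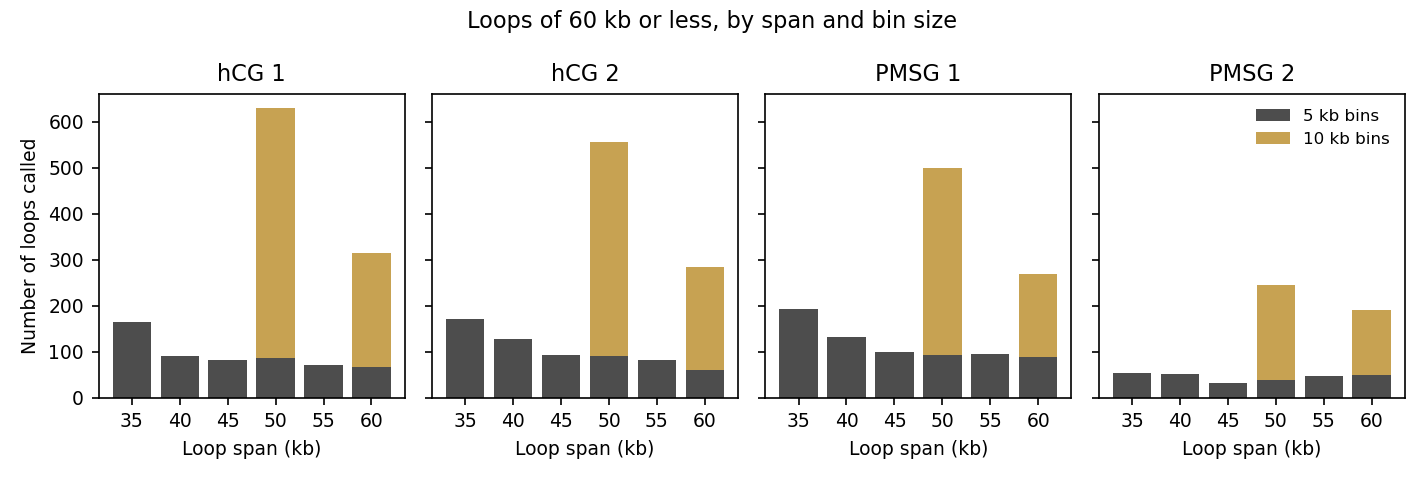
Number of called loops (vertical axis) by span in kb (horizontal axis) in each library, with loops in 5 kb bins in grey and in 10 kb bins stacked on them in ochre. At 50 kb the 10 kb bins gave 544 and 465 loops in hCG 1 and hCG 2, and 406 and 206 in PMSG 1 and PMSG 2.

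The threshold of 60 kb did not fall at a gap in the lists. Just inside it, at 60 kb in 5 kb bins, there were 68 and 61 loops in the hCG lists and 89 and 49 in the PMSG lists, with median observed over expected ratios of 5.93, 5.31, 4.32 and 6.53 in hCG 1, hCG 2, PMSG 1 and PMSG 2. Just outside it, at 65 kb, there were 55 and 72 loops in the hCG lists and 80 and 44 in the PMSG lists, with medians of 6.19, 5.98, 4.93 and 6.50 in the same order. The ratio divides the contact count of a loop's pixel by the count expected from the ring of pixels around it (the donut). Among chromosomes, short loops took the largest share of called loops on chromosome 11 in each list, at 23.9% and 22.3% in hCG 1 and hCG 2 and 22.3% and 17.2% in PMSG 1 and PMSG 2. On X the share was 8.28% and 7.65% in the hCG lists, the lowest there, and 8.99% and 6.25% in the PMSG lists, where chromosomes 13 (8.87% in PMSG 1) and 12 (5.02% in PMSG 2) were lowest.

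Most short loops had a gene at an anchor. A gene end was annotated at 1 anchor or more (2.5 kb or closer) in 64.7% and 64.6% of short loops in hCG 1 and hCG 2, against 66.7% and 67.4% in PMSG 1 and PMSG 2. The difference between the groups was -2.32 points (exact permutation test, two-sided, p = 0.333). Both anchors had a gene end in 20.3% and 21.7% of the hCG short loops and in 22.2% and 21.1% of the PMSG short loops. Both ends of 1 gene met in 37 and 42 short loops of the hCG lists and in 40 and 20 of the PMSG lists.

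Short loops had gene ends more often than longer loops of the same list in the same bin size. Within 5 kb bins the shares were 64.6% of short against 46.3% of longer loops in hCG 1, 64.1% against 45.3% in hCG 2, 64.8% against 46.4% in PMSG 1, and 60.4% against 41.8% in PMSG 2. The difference lay between 18.3 and 18.8 points in the 4 libraries, with a mean of 18.5 points, and short loops were higher in 4 of 4 libraries. The exact sign-flip permutation test (two-sided) gave p = 0.13, the smallest value that 4 libraries allow. Gene ends at both anchors were found in 20.7%, 23.6%, 19.6% and 19.4% of short loops in 5 kb bins in hCG 1, hCG 2, PMSG 1 and PMSG 2, against 9.03%, 8.68%, 9.24% and 7.28% of longer loops. For comparison, 21.5% of all pairs of 5 kb bins 50 kb apart had a gene end at 1 bin or both, and 3.53% at both.

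**Figure D2:**
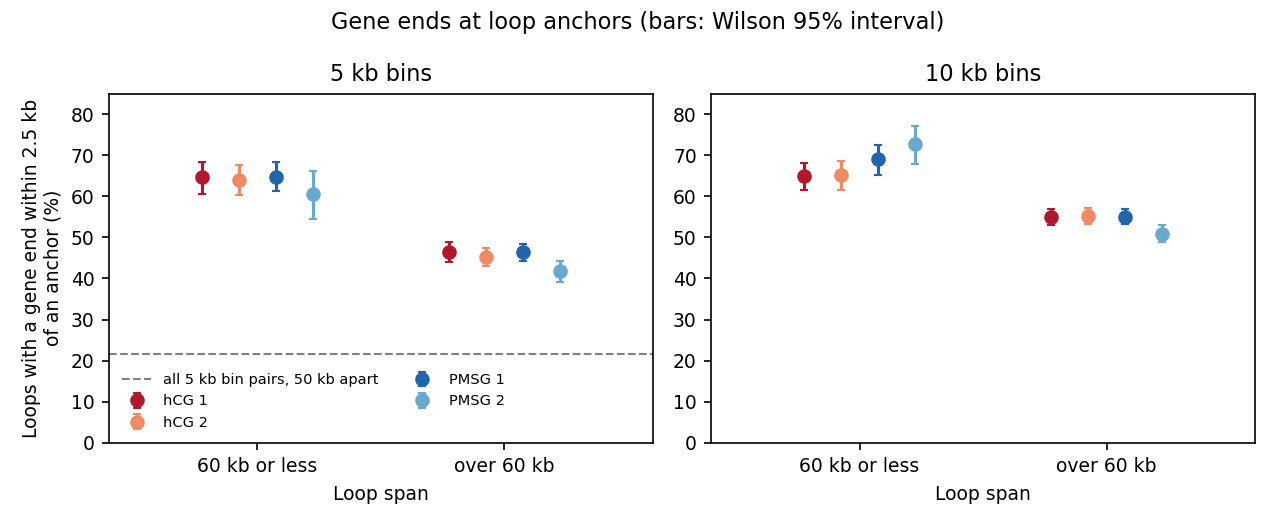
Percent of loops with a gene end at an anchor, 2.5 kb or closer (vertical axis), for loops of 60 kb or less and over 60 kb (horizontal axis), in 5 kb bins (left) and 10 kb bins (right). Points are libraries, bars are Wilson 95% intervals, and the dashed line is the share among all 5 kb bin pairs 50 kb apart (21.5%). In 5 kb bins all short-loop points lie between 60.4 and 64.8%, above all longer-loop points.

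Transcription start sites followed the same order. Outside chromosome 18, in 5 kb bins, a start site lay within 2.5 kb of an anchor in 41.8% and 43.9% of short loops in the hCG lists and in 43.5% and 33.3% in the PMSG lists. Among longer loops the shares were 24.1% and 25.5% in the hCG lists and 25.9% and 22.5% in the PMSG lists. Start sites at both anchors were found in 7.45% and 8.06% of hCG short loops and in 7.40% and 6.82% of PMSG short loops, against 1.53 to 2.24% of longer loops. No preference for genes running into or out of the loop was detectable: 47.7% and 56.4% ran inward in the hCG lists and 53.1% and 47.5% in the PMSG lists, and each Wilson 95% interval held 50%.

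Promoters that lay whole inside an anchor were searched for motifs. The GC box, bound by SP and KLF factors, was in 50% and 51.3% of promoters inside short 5 kb anchors of hCG 1 and hCG 2 and in 47.4% and 40.9% in PMSG 1 and PMSG 2. Promoters inside longer-loop anchors had it in 39.5% and 35.6% in the hCG lists and 39.3% and 32.7% in the PMSG lists, and all promoters of the table in 35.9%. The AP-1 letters were in 4.51% and 3.25% of promoters inside short anchors in the hCG lists and in 4.80% and 2.61% in the PMSG lists. They were in 8.42% and 6.97% of those inside longer-loop anchors in the hCG lists, in 8.16% and 9.0% in the PMSG lists, and in 7.85% of all promoters. In 10 kb bins the GC box was in 56.1% and 53.0% of promoters at short anchors of the hCG lists and 52.9% and 46.5% in the PMSG lists, against 41.9% and 43.5% at longer-loop anchors in the hCG lists and 44.5% and 43.1% in the PMSG lists. The GC box share was thus higher at short anchors in each list and bin size, with no test made. The AP-1 share did not keep its order: in 10 kb bins it was 6.50% and 5.09% at short anchors of the hCG lists and 6.91% and 6.58% in the PMSG lists, against 6.39% and 7.01% at longer-loop anchors in the hCG lists and 6.72% and 6.4% in the PMSG lists. The CTCF core was in 10.9% and 11.9% of promoters at short 5 kb anchors in the hCG lists and in 13.2% and 13.9% in the PMSG lists, against 13.5 to 14.9% at longer-loop anchors and 8.67% of all promoters. In 10 kb bins it was in 14.6% and 13.2% at short anchors of the hCG lists and 12.5% and 13.2% in the PMSG lists, against 13.1% and 11.8% at longer-loop anchors in the hCG lists and 13.5% and 12.7% in the PMSG lists, so its order also changed with the bin size. The CRE was in 3.01%, 1.81%, 1.80% and 2.61% of promoters at short 5 kb anchors of hCG 1, hCG 2, PMSG 1 and PMSG 2, and in 1.80% of all promoters. At longer-loop anchors in 5 kb bins the CRE was in 1.79%, 1.88%, 1.67% and 1.33% in the same order. The TATA box was in 10.5%, 9.39%, 9.61% and 6.96% of promoters at short 5 kb anchors, again in that order. At longer-loop anchors in 5 kb bins it was in 9.44%, 9.60%, 10.2% and 13.0%, and in 13.7% of all promoters. The NR5A letters were in 0.43% of all promoters, and in at most 2 promoters at short 5 kb anchors of any list.

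Many short loops lay inside the span of a longer loop. A longer loop of the same list enclosed 58.8% and 59.1% of the short loops in hCG 1 and hCG 2. In PMSG 1 and PMSG 2 the shares were 60.7% and 42.8%. An overhang of up to 5 kb was allowed at each anchor midpoint. How often other segments of this length lie inside a longer loop was not determined. An anchor lay within 5 kb of an anchor of a longer loop in 35.8% and 35.1% of hCG short loops and in 38.6% and 29.4% of PMSG short loops. Genes lying wholly between the outer edges of the anchors, the anchors included, were also counted. At least 1 such gene was found in 39.7% and 40.8% of hCG short loops and in 45% and 48.7% of PMSG short loops. Conversely, 18.4% and 16.3% of hCG short loops and 16.1% and 11.7% of PMSG short loops lay wholly inside 1 gene.

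Called short loops were less enriched over their surroundings than called longer loops. Only pixels that passed the caller are compared, and the caller needs larger ratios at low counts. The part of this threshold in the difference was not tested. The median observed over expected ratio of short loops in 5 kb bins was 5.22 and 4.84 in hCG 1 and hCG 2, and 3.81 and 5.71 in PMSG 1 and PMSG 2. Longer loops had medians of 7.87 and 7.16 in the hCG lists and 6.01 and 7.88 in the PMSG lists. The short-minus-longer difference was -2.66 and -2.32 in hCG 1 and hCG 2, and -2.20 and -2.17 in PMSG 1 and PMSG 2, lower in 4 of 4 libraries with a mean of -2.34 (exact sign-flip permutation test, two-sided, p = 0.13). In 10 kb bins the medians of short loops were 2.76 and 2.59 in the hCG lists and 2.27 and 3.09 in the PMSG lists. Between the groups, the median of short loops in 5 kb bins differed by 0.27 (exact permutation p = 1), since PMSG 1 was lowest and PMSG 2 highest. Leaving out PMSG 1 turned that difference to -0.68, and leaving out PMSG 2 gave 1.2.

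**Figure D3:**
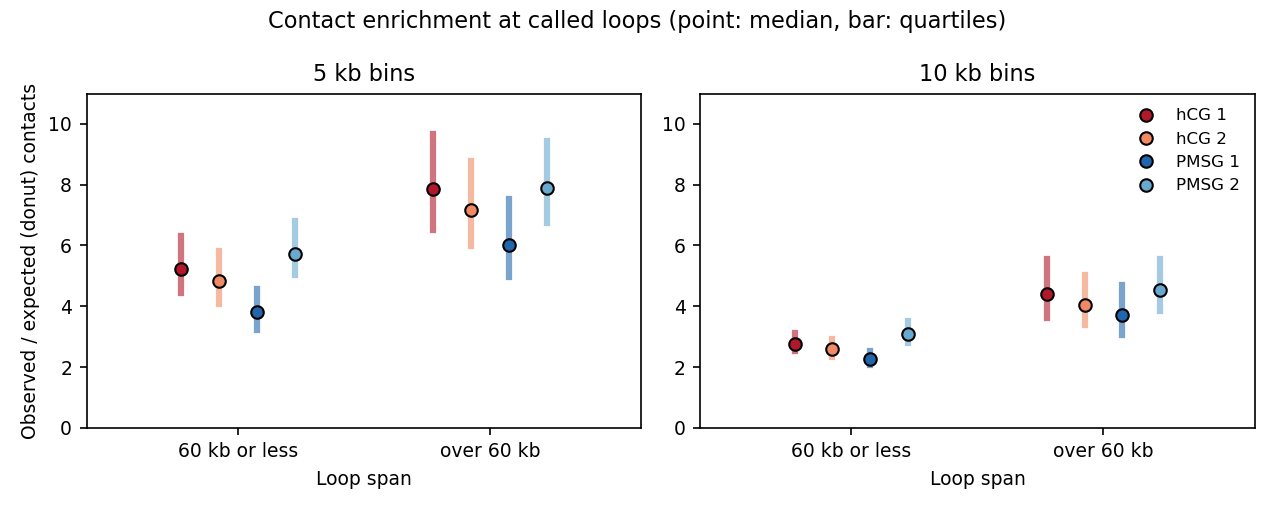
Observed over expected (donut) contacts (vertical axis, linear) at called loops of 60 kb or less and over 60 kb (horizontal axis), in 5 kb bins (left) and 10 kb bins (right). Points are medians per library and bars run between the quartiles over loops. Short loops in 5 kb bins have medians of 3.81 to 5.71, below the 6.01 to 7.88 of longer loops.

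How often a short loop was found again in another list depended on its bin size and on the list searched. A loop was counted as found when both anchor midpoints lay within 20 kb of those of a loop in the other list. Longer loops include those in 25 kb bins, where a shift of 1 bin already exceeds 20 kb, and short loops do not. The part of this in the comparisons with longer loops was not tested. Of the short loops of hCG 1, 64.9% were found in hCG 2, 57.6% in PMSG 1 and 35.4% in PMSG 2. Of the PMSG 2 short loops, 77.2% were found in hCG 1, 78.0% in hCG 2 and 84.2% in PMSG 1, against 67.1%, 69.7% and 77.2% of its longer loops. The mean over ordered pairs of lists was 64.1% within groups and 58.4% between groups, against 70.9% and 66.7% for longer loops of all bin sizes. Of short loops in 5 kb bins, 77.3% of those of hCG 1 were found in hCG 2. Of those of PMSG 1, 70.7% and 74.7% were found in hCG 1 and hCG 2. These shares lay above the 72.2%, 63.7% and 66.5% of longer loops of all bin sizes in the same searches. Short loops in 10 kb bins were found in 56.0%, 47.3% and 48.3% of those searches. Searched in PMSG 2, the 10 kb short loops of hCG 1, hCG 2 and PMSG 1 were found in 22.5%, 23.4% and 25.9%. There the 5 kb short loops of the same lists were found in 53.5%, 50.3% and 53.6%. These shares lay below the 63.2%, 62.7% and 65.4% of longer loops of all bin sizes, the reverse of the order above.

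**Figure D4:**
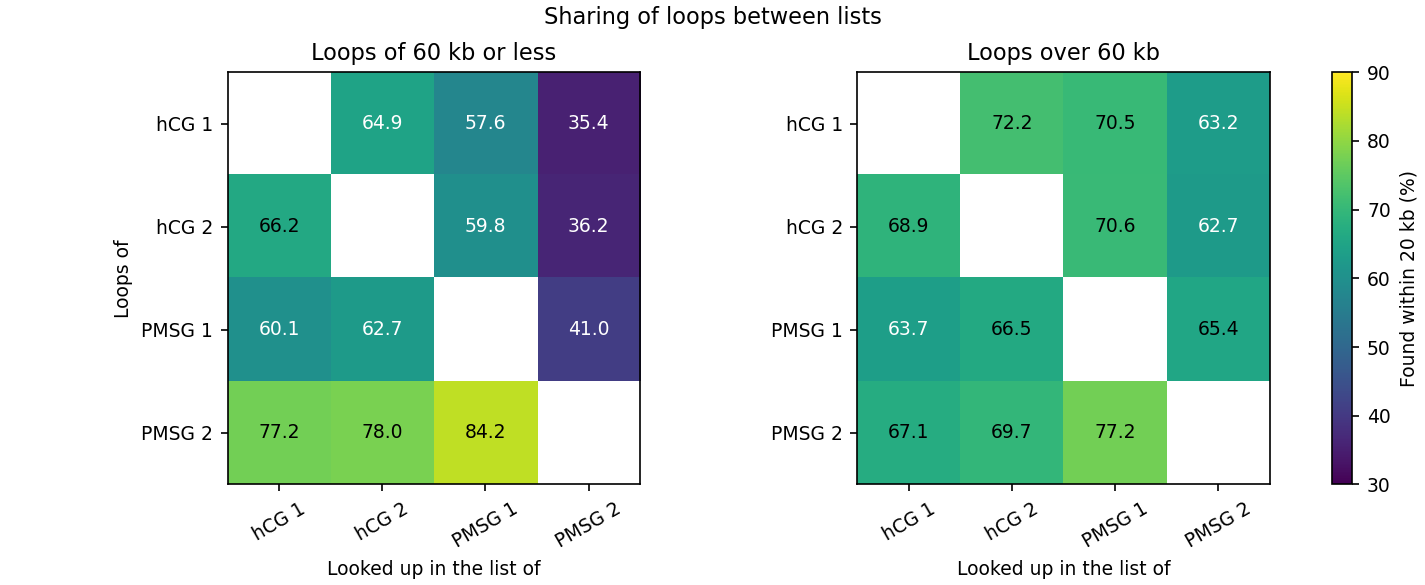
Percent of the loops of 1 list (rows) found within 20 kb in another list (columns), for loops of 60 kb or less (left) and over 60 kb (right), with the colour scale from 30 to 90%. In the left panel the PMSG 2 column is lowest (35.4 to 41.0%) and the PMSG 2 row highest (77.2 to 84.2%).

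Joining matched loops over all lists gave 2095 distinct short loops, of which 51 (2.43%) held midpoints more than 20 kb apart. Called in hCG 1 and hCG 2 and absent from the PMSG lists were 189, or 9.02% of the distinct short loops, where 5.05% of distinct loops of any span had this pattern. In both PMSG lists and neither hCG list there were 43, or 2.05%, where the share over all spans was 3.80%. In all 4 lists there were 390, or 18.6%, against 29.9% over all spans. The shares over all spans include loops in 25 kb bins, where a shift of 1 bin exceeds the match distance of 20 kb. A single list held 949 (45.3%), of which 324 were in hCG 1, 276 in hCG 2, 304 in PMSG 1 and 45 in PMSG 2. Absence from a list means that the caller's thresholds were not met, and contacts at such pixels were not analysed here. The low number of short loops in PMSG 2 enters every one of these counts: without PMSG 2 there were 212 loops in both hCG lists and not in PMSG 1, 348 in PMSG 1 and in neither hCG list, and 614 in all 3 remaining lists. Without PMSG 1 the corresponding counts were 422, 87 and 414. Without hCG 1 there were 478 in hCG 2 alone and 76 in both PMSG lists only, and without hCG 2 there were 517 in hCG 1 alone and 83 in both PMSG lists only. A gene end was present at 64.0% of the loops in both hCG lists only, at 69.8% of those in both PMSG lists only, at 75.1% of those in all 4 lists, at 79.0% of those in 3 lists, and at 79.0% of those in 1 hCG and 1 PMSG list. Over all spans the shares were 66.7%, 59.9%, 63.7%, 70.4% and 72.1% in the same order. Loops in more lists have more anchors at which a gene end can count.

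The short loops in both hCG lists only were next read gene by gene, in the order of the smaller of their 2 ratios. The highest had both anchors at Stx3, a syntaxin of membrane fusion, with Mrpl16, a mitochondrial ribosomal protein gene, beside 1 anchor (chr19:11775001-11780000 with chr19:11820001-11825000 in hCG 1). It held 25 contacts against 4.06 expected in hCG 1 and 24 against 4.60 in hCG 2. Cebpa encodes a transcription factor that, with its relative CEBPB, is needed in mouse granulosa cells for ovulation. Its loop on chromosome 7 spanned 40 kb in hCG 1 with 19 contacts against 3.84 expected, and 50 kb in hCG 2 with 20 against 3.53. The Cebpa end lay within 2.5 kb of the anchor in hCG 2 alone. Depp1, a regulator of autophagy downstream of FOXO factors, had 23 and 25 contacts against 4.77 and 4.65 expected in hCG 1 and hCG 2. Between Fam136a with Snrpg, a spliceosome gene, and Tia1, an RNA-binding protein gene, 25 and 20 contacts were observed against 3.16 and 4.26 expected at a span of 35 kb. The others of the 8 were at Zfp13 with Zscan10, at the vesicle transport gene Rab1a with Cep68, at Fndc3b, and at Fam71f2 with Hilpda, a lipid droplet gene. Their ratios lay between 4.31 and 5.06. Contacts at these 8 places in the PMSG libraries were not analysed here.

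Of the listed genes, 4 of 29 in the early LH response, 1 of 20 in cumulus matrix and rupture, 2 of 27 in steroid and cholesterol synthesis, 4 of 24 granulosa transcription factors and 1 of 26 follicular granulosa genes had an end at a short loop of both hCG lists only, where 185 of 21631 genes (0.86%) did. So did 1 of 17 theca, stroma and smooth muscle markers, Nr2f2, which is also a listed granulosa transcription factor. Fosl2 counts in the early LH list and in the transcription factor list. The remaining gene lists had 0. The genes described next were picked across the lists with such genes. Ereg and Epgn are neighbouring genes for EGF receptor ligands. The end of Epgn met the start of Ereg over 35 kb (chr5:91035001-91040000 with chr5:91070001-91075000), with 30 contacts against 5.52 expected in hCG 1 and 23 against 5.74 in hCG 2. The Poisson 95% intervals of the ratio were 3.66 to 7.75 in hCG 1 and 2.54 to 6.01 in hCG 2. Epgn had a second short loop of this class, to the other side, with 47 and 59 contacts against 17.7 and 17.1 expected in 10 kb bins of hCG 1 and hCG 2. The start of Errfi1, whose product dampens the receptor of those ligands, took part in a 50 kb loop (chr4:150800001-150810000 with chr4:150850001-150860000). The loop held 45 and 55 contacts in hCG 1 and hCG 2 where 15.4 and 19.7 were expected. The Errfi1 window printed above is that of its other start, which lay in the same anchor. Ereg, Epgn and Errfi1 thus had short loops in both hCG lists that were in neither PMSG list. Areg and Btc, the other EGF receptor ligand genes of the early LH list, had no end at a short loop of at least 2 lists.

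Tnfaip6, whose promoter with its AP-1 letters is printed above, had its start in the anchor at chr2:52035001-52040000 in both hCG lists. The loop held 20 contacts against 4.05 expected over 45 kb in hCG 1, and 19 against 4.42 over 60 kb in hCG 2. In hCG 2 the other anchor was at the 5′ end of Nmi, a gene of cytokine signalling. The largest FDR value of this loop was 0.0581 in hCG 1 and 0.0142 in hCG 2, so neither call is in lists restricted to 0.01. Hmgcs1, an enzyme of cholesterol synthesis, had a loop at its start in both hCG lists, which in hCG 2 reached the 3′ end of the chemokine gene Ccl28. In hCG 1, 37 contacts were observed where 9.69 were expected (10 kb bin), and in hCG 2, 19 where 3.73 were expected (5 kb bin). Npc1, which moves cholesterol out of lysosomes, had a loop on chromosome 18, between its own ends in hCG 1 and at its higher-numbered end in hCG 2, at 38 contacts where 12.7 were expected in hCG 1 (10 kb bin) and 17 where 3.08 were expected in hCG 2 (5 kb bin). A loop beside the 3′ end of Nr5a2, which encodes a nuclear receptor active in granulosa cells, had 38 and 35 contacts against 13.1 and 12.8 expected in hCG 1 and hCG 2, with that end within 2.5 kb of the anchor in hCG 1. PMSG 1 also held 1 short loop call with an end of Nr5a2, in a set of matched loops counted elsewhere. The Nr5a2 call of hCG 1 (0.0101) and the Npc1 call of hCG 2 (0.0105) also had an FDR value above 0.01.

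In both PMSG lists only, the highest ratios were at A630073D07Rik, with 27 contacts against 4.21 expected in PMSG 1 and 25 against 6.28 in PMSG 2. Col1a1, the collagen gene used here as a stroma marker, met Hils1 and Sgca over 35 kb, with 28 against 7.46 expected in PMSG 1 and 17 against 3.06 in PMSG 2. The loop at Ass1, whose promoter with its CTCF core is printed above, held 29 contacts against 8.60 expected in PMSG 1 and 16 against 2.89 in PMSG 2. That core lay on the plus strand in the right anchor and so pointed out of the loop. The others had ends of Map3k10 with Ttc9b, of the keratin gene Krt12, of Cfap97, of Tmem14a and of Agap1, at ratios between 3.01 and 6.49, and the Agap1 loop of PMSG 2 spanned 70 kb. Inhbb, which encodes the βB subunit of activin and inhibin, was the follicular gene in this class. It met the 3′ end of Ralb with 59 contacts against 26.1 expected over 60 kb in PMSG 1 and 28 against 9.16 over 50 kb in PMSG 2.

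**Figure D5:**
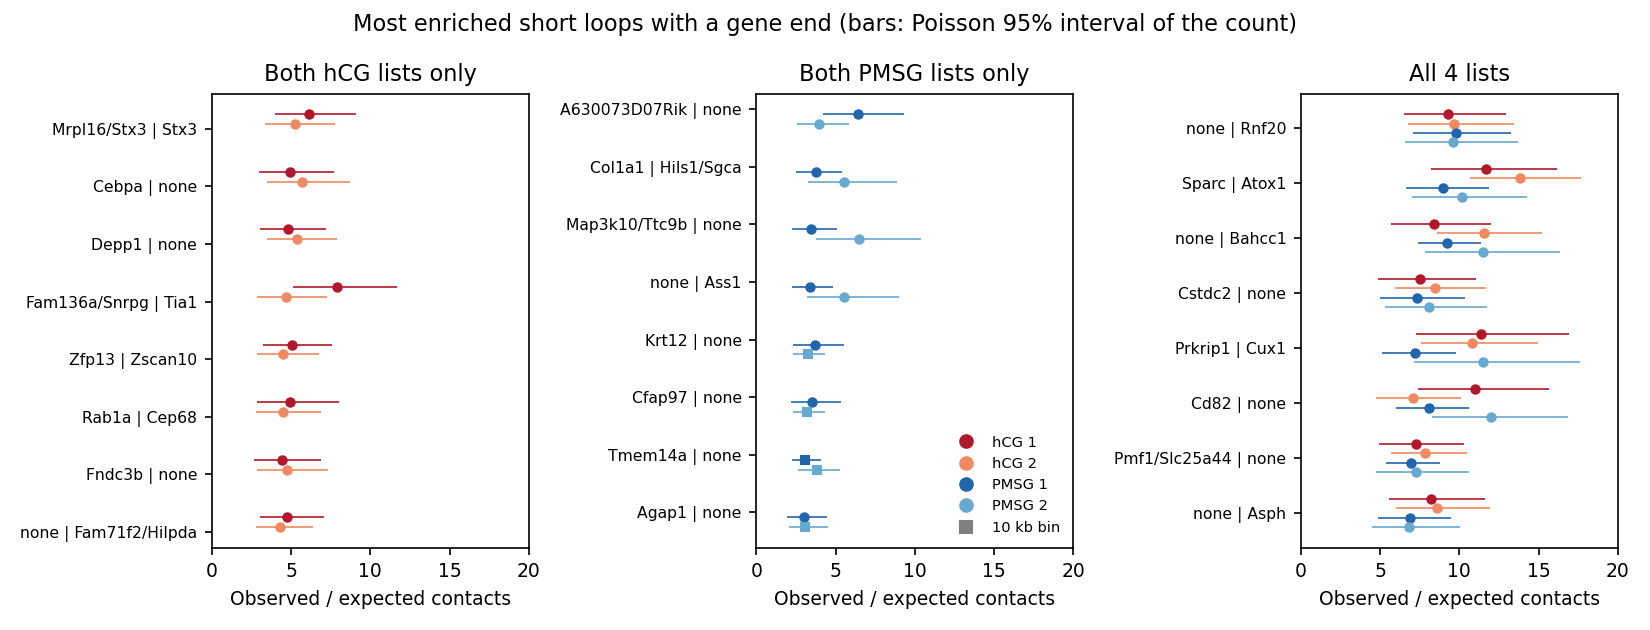
Observed over expected contacts (horizontal axis, linear) of the 8 short loops with a gene end and the highest smallest ratio in both hCG lists only, in both PMSG lists only and in all 4 lists. Labels give genes at the left and right anchor, points are libraries (squares for 10 kb bins) and bars are Poisson 95% intervals of the contact count. Ratios reach 13.8 (Sparc with Atox1) in the panel of all 4 lists and 7.91 in the other panels. The loops were picked by these ratios, from 293 with a gene end in all 4 lists, 121 in both hCG lists only and 30 in both PMSG lists only. The panels are therefore no comparison of the classes.

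Among short loops of all 4 lists with a gene end, the 8 with the highest smallest ratio held 6.84 to 13.8 times the locally expected contacts. At Rnf20, a ubiquitin ligase of histone H2B, the loop of 60 kb held 35 and 35 contacts in hCG 1 and hCG 2 and 42 and 31 in PMSG 1 and PMSG 2, at ratios of 9.31, 9.67, 9.81 and 9.63. All 4 values lay within each other's Poisson intervals, the widest of which ran from 6.55 to 13.7. Sparc, a matricellular protein gene, met Atox1, a copper chaperone gene, 3′ end to 3′ end on chromosome 11, over 60 kb in hCG 1 and PMSG 2 and over 55 kb in hCG 2 and PMSG 1, where the Sparc end lay at the anchor. Its contacts were 37 and 64 in hCG 1 and hCG 2 against 3.16 and 4.62 expected, and 49 and 33 in PMSG 1 and PMSG 2 against 5.46 and 3.25 expected. The ratios were 11.7 and 13.8 in the hCG lists and 8.97 and 10.2 in the PMSG lists, with overlapping intervals. Prkrip1 with the homeobox gene Cux1 had ratios of 11.4 and 10.8 in the hCG lists and 7.18 and 11.5 in the PMSG lists. Cd82, a tetraspanin gene, had 11 and 7.06 in the hCG lists and 8.07 and 12 in the PMSG lists, so the libraries of a group differed as much as the groups. The other 4 were at Bahcc1, Cstdc2, Pmf1 with Slc25a44, and Asph, with ratios from 6.84 to 11.6.

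The shortest span of 35 kb was shared by all 4 lists at several genes. The end of Tom1, an endosomal sorting gene, met the start of Mcm5 (chr8:75070001-75075000 with chr8:75105001-75110000) with 30 and 45 contacts in hCG 1 and hCG 2, against 4.25 and 6.06 expected, and with 55 and 24 in PMSG 1 and PMSG 2, against 9.56 and 3.81 expected. The ratios were 7.07 and 7.42 in the hCG lists and 5.76 and 6.30 in the PMSG lists. On chromosome 13 the histone gene H4c3 and the iron regulator Hfe met H1f2, the gene of a linker histone, and matched loops in 10 kb bins of hCG 1 and PMSG 1 took in H2ac6 and H2bc4. This histone loop had ratios of 6.45 and 6.62 in 5 kb bins of hCG 1 and hCG 2 and of 5.92 and 8.26 in PMSG 1 and PMSG 2. Polr3gl, a subunit gene of RNA polymerase III, had 7.42 and 8.78 in the hCG lists and 6.03 and 7.59 in the PMSG lists. Plxnb1, a semaphorin receptor gene, had 7.31 and 9.32 in the hCG lists and 5.99 and 8.11 in the PMSG lists. A loop on chromosome 3 with no gene end (chr3:88485001-88490000 with chr3:88520001-88525000) had 7.69 and 9.38 in the hCG lists and 5.99 and 7.38 in the PMSG lists. PMSG 1, the deepest library, was the lowest of the 4 at each of these 5 loops.

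A loop joined the start of a gene to its own end in all 4 lists at 4 genes. Ptges, the inducible synthase of prostaglandin E2, had such a loop over 40 kb (chr2:30890001-30895000 with chr2:30930001-30935000). It held 20 and 21 contacts in hCG 1 and hCG 2 against 2.80 and 4.33 expected, and 26 and 17 in PMSG 1 and PMSG 2 against 7.33 and 2.79 expected. The ratios were 7.14 and 4.85 in the hCG lists and 3.55 and 6.08 in the PMSG lists, so the groups overlapped. Igfbp7, whose promoter with its GC boxes is printed above, had 45 and 59 contacts in 10 kb bins of hCG 1 and hCG 2 against 11.2 and 13.0 expected, and 73 and 57 in PMSG 1 and PMSG 2 against 19.0 and 9.73 expected. Ptp4a3, a protein phosphatase gene, had ratios of 5.81 and 6.78 in the hCG lists and 5.36 and 6.43 in the PMSG lists. Ikzf4, an Ikaros-family factor gene, had 3.01 and 2.71 in the hCG lists and 2.28 and 3.37 in the PMSG lists.

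Over all genes, 2800 of 21631 (12.9%) had an end at a short loop of at least 1 list, 1285 (5.94%) of at least 2 lists, and 253 (1.17%) of all 4. Of the 24 granulosa transcription factors listed, 12 had a short loop in at least 1 list and 4 in at least 2, namely Nr5a2, Cebpb, Esr2 and Foxo1. Of 29 genes of the early LH response, 9 had one in at least 1 list and 5 in at least 2: Ereg, Epgn, Fosb, Errfi1 and Cebpb. Of 20 genes of cumulus matrix and follicle rupture the counts were 6 and 3, and the 3 were Tnfaip6, the protease gene Ctsl and the metalloprotease gene Mmp2. Of 26 follicular granulosa genes they were 11 and 6, and of 27 genes of steroid and cholesterol synthesis 7 and 4. These shares lay above those of all genes. The same 5 lists also lay above all genes at loops of any span in at least 2 lists, where 28.9% of all genes had one. In the same order the counts there were 17 of 24, 18 of 29, 12 of 20, 20 of 26 and 15 of 27. The higher shares were thus not particular to short loops. The ribosomal protein genes, at 5 and 1 of 36, were close to the share of all genes or below it. The HOX genes had 1 and 0 of 39 and the other developmental regulators 2 and 2 of 48, below the shares of all genes, while 21 and 26 of them had loops of any span in at least 2 lists, where 28.9% of all genes did. Histone genes had 7 and 5 of 19, cohesin, CTCF and loop extrusion genes 3 and 2 of 18, and cell cycle genes 2 and 2 of 25.

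Markers of other cells that a punctured ovary can hold were at short loops as well. At least 1 list had a short loop at 3 of 15 endothelial, 4 of 17 theca, stroma and smooth muscle, 2 of 15 leukocyte and 1 of 16 oocyte markers, and at least 2 lists at 1, 1, 0 and 0 of them. The endothelial (20%) and the theca, stroma and smooth muscle markers (23.5%) thus lay above the 12.9% of all genes too. A loop does not measure expression, so these counts do not show which cells the loops came from, and the part of other cells in these lists was not tested.

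Among follicular genes, Inha, the inhibin α subunit, with Obsl1 met Slc4a3 in 3 lists, with 19 and 18 contacts in hCG 1 and hCG 2 against 3.31 and 4.51 expected, and 73 in PMSG 1 where 33.6 were expected (10 kb bin). The region of Amhr2, the receptor of anti-Müllerian hormone, and of Sp1 had a loop in all 4 lists, and the Amhr2 end itself was reached by the 10 kb bins of hCG 2 and PMSG 1, at ratios of 3.01 and 2.71. Bmpr2, a receptor of bone morphogenetic proteins, had ratios of 3.76 and 2.28 in hCG 1 and hCG 2 and of 4.53 in PMSG 1, with its start at the anchor in hCG 1 and PMSG 1. Igf1r, the receptor of insulin-like growth factor 1, had 46 and 35 contacts in hCG 1 and hCG 2 and 54 in PMSG 1, and its hCG 1 loop spanned 70 kb. Npr2, the receptor of C-type natriuretic peptide, had a loop in hCG 1 with 20 contacts and in PMSG 2 with 19. None of Inha, Bmpr2 and Igf1r had the loop in PMSG 2, the list with the fewest short loops.

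Among transcription factor genes, Foxo1 had a loop at its 5′ end in 10 kb bins with 47 and 55 contacts in hCG 1 and hCG 2 against 14.5 and 17.3 expected, and 65 in PMSG 1 against 26.2, where the anchor lay farther than 2.5 kb from that end. A loop from Tmem189 and Ube2v1 towards Cebpb was in 3 lists, with the Cebpb end at the anchor in hCG 2. It had ratios of 5.18 and 2.73 in hCG 1 and hCG 2, the first in a 5 kb and the second in a 10 kb bin, and 3.41 in PMSG 1. The 2 ends of Esr2, which encodes estrogen receptor beta, met in hCG 2 with 70 contacts where 25.1 were expected (10 kb bin). The matched PMSG 1 loop, at its 5′ end, had 31 where 10.3 were expected (5 kb bin). Fosb, an AP-1 gene, with Rtn2 met the repair gene Ercc1 in all 4 lists, with the Fosb end itself at the anchor in 3 of them, at ratios of 5.29 and 8.41 in the hCG lists and 5.38 and 8.30 in the PMSG lists. The cell cycle inhibitor gene Cdkn1a met the 3′ end of Srsf3 in all 4 lists, with 27 and 29 contacts in hCG 1 and hCG 2 and 29 and 43 in PMSG 1 and PMSG 2, the last in a 10 kb bin. Beside Wapl, which releases cohesin from chromatin, a loop was in all 4 lists, with its start at the anchor in hCG 2 and with 19 and 50 contacts in hCG 1 and hCG 2 and 40 and 23 in PMSG 1 and PMSG 2.

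The genes with the most distinct short loops, 3 each, were Ahcyl2, Arhgap23, Syt7, Col4a2 and Elane. All 3 loops of Elane were called in PMSG 1 alone, and the loops of Col4a2, a basement membrane collagen gene, had its own end at an anchor in the hCG lists only. At Syt7, a synaptotagmin gene, 1 loop was in all 4 lists, with 21 and 36 contacts in hCG 1 and hCG 2 and 41 and 16 in PMSG 1 and PMSG 2.

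Whether the contact strength of short loops differed after hCG was tested at pixels called at the same position in all 4 lists. Of 435 such pixels, 66 were short. Loops called in only some of the lists could not enter, so the test says nothing on them. With edgeR's quasi-likelihood test and the donut expectation as offset, 0 of the 66 passed an adjusted p of 0.05, and 0.00% of the 435 did. At an unadjusted p under 0.05 there were 9 short pixels, where 6.67% of all 435 pixels passed (29), and DESeq2 called 0 with 1 at an unadjusted p under 0.05. The median log2 ratio of hCG over PMSG was 0.23 at short pixels and 0.12 at all 435, and 51 of 66 short pixels were above 0. With library sizes from TMM and no expectation these were 0.05, 0.01 and 40 of 66. Without PMSG 1 the median at short pixels was 0.04, and without PMSG 2 it was 0.33 with 1 short pixel called (adjusted p = 0.00473, edgeR). The smallest adjusted p with all libraries, 0.331, was at a loop of 40 kb with no gene end on chromosome 18, with ratios of 9.30 and 9.55 in hCG 1 and hCG 2 and 4.29 and 5.57 in PMSG 1 and PMSG 2. A pixel near Tpgs2, a tubulin polyglutamylase gene, had 11.3 and 9.5 in the hCG lists and 5.57 and 7.28 in the PMSG lists (adjusted p = 0.553, edgeR). Klf15, a Krüppel-like factor gene, had 5.17 and 4.66 in the hCG lists and 3.36 and 3.62 in the PMSG lists (adjusted p = 0.553, edgeR). At these 3 pixels both hCG values lay above both PMSG values, and none passed the threshold.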

How the data were processed

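Loops were deposited as 1 list per library, with bins of 5, 10 and 25 kb on mm10 and the columns of the HiCCUPS caller. The file headers name juicer_tools 1.22.01, and BWA and Juicer come from the submitters' processing notes. No source used here gives the caller's settings or read filters. Per the file headers, each loop has the observed contact count of its pixel, not normalized, and an expected contact signal from 4 neighbourhoods. The FDR of each is deposited as a q-value, all at 0.0994 or less. The deposited score, the number of collapsed pixels, was not used. Contacts can include PCR copies, so intervals cover counting error only.

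Span is the distance between anchor midpoints, and positions are counted from 1. Loops matched within 20 kb at both midpoints, and connected sets formed 12920 distinct loops, each placed and sized by its loop in the smallest bins. Genes named for a distinct loop had an end within 2.5 kb of an anchor in at least 1 list. Genes were 21631 RefSeq protein-coding genes (GRCm38.p6), and 17274 of them matched a promoter window by symbol. Strand came from the windows, and the windows used here hold none of chromosome 18.

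The members, the 15 gene lists, the tests and the rule for named genes were chosen with earlier results of these data known, shorter loops after hCG included. Named were genes at the 8 loops per class, among those with a gene end, with the highest smallest ratio, at the 5 shortest loops, list members in at least 2 lists, genes with both ends at 1 loop of all 4 lists, the 5 genes with most short loops, and pixels passing the strength test, of which there were none. The Tpgs2 and Klf15 pixels were named after their values were seen.

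Loop strength was tested with edgeR 4.0.16 in R 4.3.3, Benjamini-Hochberg adjusted over 435 pixels, with DESeq2 1.42.0 as an alternative. Matching and the strength test were tested on simulated data. Replicate numbers were not used to pair the libraries in the main tests. Matching and exact tests ran in Python 3.11.15 with scipy 1.17.1, pandas 2.3.3 and numpy 2.4.6.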

Additional observations from a re-analysis of the deposited data

How the results depend on the processing

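Of 87 alternative values for 11 results, 73 kept their direction and their side of the threshold, or their size where no test was made. For results with an exact test no value could reach p = 0.05, so only the direction could change there. The difference in share of 1.6 points without PMSG 2, against 4.61 with all libraries, thus counts as kept. The tally is therefore no measure of how stable the sizes were. The hCG minus PMSG difference in the median ratio of short loops was 0.27 in 5 kb bins and -0.00078 in 10 kb bins, and it ran from -0.68 (without PMSG 1) to 1.2 (without PMSG 2) with 1 library left out. With 1 library left out, the loops in the remaining hCG lists only ranged from 212 to 517. Those in the remaining PMSG lists only ranged from 76 to 348, and those in all remaining lists from 414 to 614. Where a list of the group itself was left out, the class was that of its other list alone. The loops in all 4 lists numbered 390, and 119 when anchors had to overlap, 197 with all 4 FDR values at 0.01 or less, and 239 with lists of equal length. Calls of strength at short pixels ranged from 0 to 1 with 1 library left out. With replicate number as a block, 0 short pixels were called (edgeR, smallest adjusted p = 0.988) with 7 at an unadjusted p under 0.05, and the deviations of same-numbered libraries correlated at r = -0.0157 over 435 pixels. In 5 kb bins alone the share of short loops gave an exact permutation p of 0.667. The cause of these changes was not tested. Pixels of 11 to 111 contacts make single ratios imprecise, and 2 libraries against 2 cannot reach p = 0.05 in an exact test.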
